A study of Mus musculus with 24 samples.

Results

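The 1.5 h reperfusion group comprised 3 libraries made from the heart RNA of mice of the inbred C57BL/6 strain, and was compared with the 3 libraries of the sham group, so that 6 of the 24 libraries of the series entered the comparison. Members were chosen by the treatment label alone. Mice of the 1.5 h group underwent 45 min of ischemia, in which flow to heart muscle is stopped, and then 1.5 h of reperfusion, in which flow returns. Mice of the sham group underwent sham surgery, and no genotype or age is given for either group. The labels give no time from sham surgery to collection, so time since surgery and reperfusion cannot be told apart. The other groups were 45 min of ischemia alone and the same ischemia with reperfusion for 0.5, 1, 3, 6 or 12 h, each of 3 libraries. Of these, the 1 h and 3 h groups served to place 1.5 h in time. RNA came from frozen heart tissue, so that a change in the RNA of a cell type and a change in the number of its cells cannot be told apart. Whether each library is a separate animal is not in the labels, and p-values measure the spread between these libraries, which may be technical. Tissue identity was checked on 15 markers of ventricular cardiomyocytes, which together held 89790 to 94250 CPM (read counts scaled to a common library size) in sham and 97680 to 103300 CPM at 1.5 h.

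Return of blood flow to ischemic muscle delivers oxygen, calcium and stretch signals at once. The earliest transcriptional answer in most cells consists of immediate early genes, whose transcription needs no new protein synthesis and whose products, such as the AP-1 and Egr factors, act on later genes. Heat shock factor, NF-kappaB, STAT3, NRF2 and the integrated stress response each control further gene groups that protect proteins, recruit leukocytes or limit oxidative damage, and many of their targets encode inhibitors of the same pathways. Atf3 and Fancd2, named in the title of the series, encode a stress-induced transcription factor and a protein of DNA crosslink repair.

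Libraries of the 1.5 h group held 15749677 to 15979076 uniquely mapped reads in genes. Genes of the mitochondrial genome took 26.4% ± 1.27 of these reads at 1.5 h and 31.0% ± 2.14 in sham (SD, n = 3 per group), without overlap (exact two-sided permutation p = 0.1, the smallest that 3 against 3 libraries allow), and duplicates took 49.4% ± 1.32 and 52.6% ± 2.27 (exact permutation p = 0.2). The part of these shares in the results was not tested beyond the alternatives with duplicates removed and with mitochondrial genes left out of the scaling. On the principal components of log2 CPM over all 24 libraries, 1.5 h replicate 3 lay nearest to the 3 h libraries, at -13.4 on component 1 against -22.6 and -20.0 for replicates 1 and 2. It held the top level of the 3 for 412 of the 689 genes called higher, and values without it are given where they matter.

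Of 15128 tested genes, 689 were called higher at 1.5 h than in sham (4.55%) and 452 lower (2.99%) by edgeR's quasi-likelihood test at an adjusted p below 0.05. The rises were the larger changes. Among genes called higher, 177 changed at least 4-fold (1.17%), against 42 among those called lower (0.278%). At an unadjusted p below 0.05 there were 3371 genes. The libraries of both groups did not overlap for 680 of the genes called higher and 449 of those called lower, while 16.9% and 16.6% of all tested genes were separated in the respective direction. The median log2 fold change of all tested genes was -0.01. Without 1.5 h replicate 3 the counts were 356 higher and 147 lower, and without sham replicates 1, 2 or 3 they were 425, 421 or 441 higher and 258, 234 or 229 lower. Without 1.5 h replicate 1 there were 466 and 199.

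**Figure D1:**
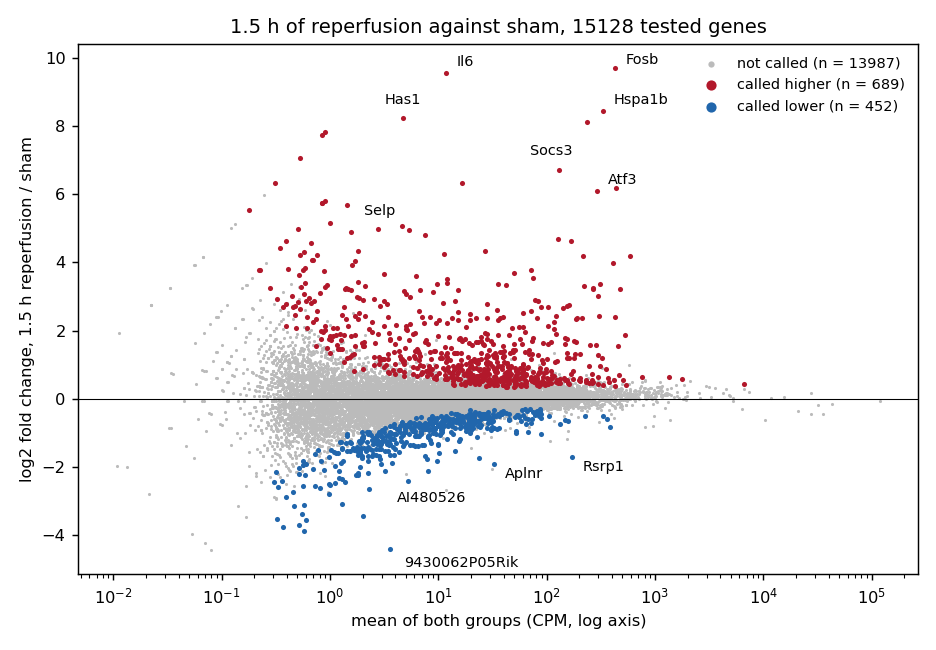
Change at 1.5 h of reperfusion against sham (vertical axis, log2 fold change) over the mean level of both groups (horizontal axis, CPM, log scale), 1 point per tested gene. The 689 genes called higher (red) reach a log2 fold change of 9.70 (Fosb), and the 452 called lower (blue) reach -4.40 (9430062P05Rik).

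Subunits of AP-1, a dimeric factor of Fos and Jun proteins, were among the largest rises of the comparison. Fosb stood at 0.771, 1.03 and 1.28 CPM in the sham libraries and at 1048, 558 and 941 CPM at 1.5 h (log2 fold change 9.70 ± 0.86 SE, adjusted p = 1.93e-07). Fos stood at 7.64, 8.77 and 19.5 CPM in sham and at 909.7, 668 and 995 CPM at 1.5 h (6.17 ± 0.51, adjusted p = 1.63e-07). Every 1.5 h library thus lay far above every sham library for both subunits. Junb rose from 13.1 ± 5.89 to 320.2 ± 91.7 CPM (SD, n = 3 per group; 4.62 ± 0.43, adjusted p = 2.79e-07) and Jun from 48.6 ± 17.5 to 768 ± 170 CPM (3.98 ± 0.38, adjusted p = 3.88e-07). In all, 7 of 10 tested AP-1 subunits were called higher and 0 lower, with a median of 2.68, and Fosl1 (0.88), Batf (1.14) and Batf3 (-0.56) did not pass the test.

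Atf3, a stress-induced factor of the ATF/CREB family that pairs with Jun proteins, stood at 8.86, 8.08 and 8.48 CPM in sham and at 559, 454 and 715 CPM at 1.5 h. The rise was 6.09 ± 0.59 on the log2 scale (adjusted p = 3.88e-07) and 5.90 without 1.5 h replicate 3 and still called. The gene spans chr1:191170296-191218039 (GRCm38, minus strand) and has 5 exons. Its level was not called different from 1 h, where the libraries held 564, 468 and 366 CPM, or from 3 h, where they held 357, 591 and 444 CPM.

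Zinc finger factors of the early response rose beside AP-1. Egr1 went from 61.6 ± 37.7 to 1109 ± 228 CPM (4.17 ± 0.56, adjusted p = 2.08e-05), Egr3 from 0.193, 0.274 and 0.32 CPM to 9.55, 7.35 and 9.96 CPM (5.07 ± 0.55, adjusted p = 1.62e-06) and Egr2 by 3.40 ± 0.45. The Egr corepressors Nab1 (0.02) and Nab2 (0.67) did not pass the test. All 3 Nr4a orphan nuclear receptors were called higher, with log2 fold changes of 3.78 ± 0.45 for Nr4a3, 3.25 ± 0.51 for Nr4a1 and 3.15 ± 0.42 for Nr4a2. Among Kruppel-like factors 4 of 11 were called higher, led by the shear-responsive endothelial factors Klf2, at 33.7, 41.5 and 47.8 CPM in sham and 205, 152 and 221 CPM at 1.5 h (2.24 ± 0.26), and Klf4 (2.05 ± 0.27). Of 18 other immediate early genes, 16 were called higher and 0 lower, with a median of 1.92, and Rgs2 (0.72) and Srf (0.60) did not pass. Ier2, a nuclear protein of this class, rose from 19.8 ± 4.37 to 145 ± 16.5 CPM (2.87 ± 0.30), and the members Id1 (0.95 ± 0.17) and Hes1 (1.06 ± 0.22), which repress other factors, rose less than 4-fold.

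Inhibitors of the same signals were high at this time. Dusp1, a phosphatase of MAP kinases, stood at 126, 141 and 162 CPM in sham and at 555, 345 and 373 CPM at 1.5 h (1.57 ± 0.30, adjusted p = 0.00178). Its relative Dusp5 rose by 2.50 ± 0.35 and Errfi1, an inhibitor of the EGF receptor, by 1.79 ± 0.23. Of 15 tested MAP kinase feedback genes, 9 were called higher, 0 lower, and Spry1 (0.37), Spred1 (-0.14) and Spred2 (-0.27) were among those not called. Without sham replicate 2, sham replicate 3 or 1.5 h replicate 3, 7 were called higher. Proteins that shorten the life of messenger RNA formed another such group, with 6 of 8 called higher. Zfp36 (tristetraprolin), which binds AU-rich elements of cytokine transcripts, stood at 43.3, 55.9 and 54.3 CPM in sham and at 525, 379.7 and 534 CPM at 1.5 h (3.23 ± 0.29, adjusted p = 1.93e-07). Zc3h12a (Regnase-1), an RNase that degrades Il6 transcripts, rose by 2.31 ± 0.30 and Btg2 by 3.36 ± 0.43.

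Regulators of NF-kappaB made up the next group, with 10 of 15 tested members called higher, 0 lower and a median of 0.89. The number called higher was 7 without sham replicate 2 or 1.5 h replicate 3. The nuclear coactivator Nfkbiz stood at 5.20, 6.78 and 11.2 CPM in sham and at 74.3, 75.8 and 79.6 CPM at 1.5 h (3.32 ± 0.36, adjusted p = 1.63e-06), a narrow range at the later time. Tnfaip3 (A20), which removes ubiquitin chains that activate the pathway, rose from 4.42 ± 0.51 to 25.9 ± 4.49 CPM (2.55 ± 0.35), and Bcl3, a coactivator, from 2.63 ± 1.67 to 14.2 ± 7.35 CPM (2.40 ± 0.40, and 1.90 without 1.5 h replicate 3, where its level was highest). The subunits Nfkb1 (0.27) and Nfkb2 (0.57) did not pass the test.

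Socs3, the inhibitor of gp130 receptors that STAT3 induces, was the largest rise of the JAK-STAT list. Its libraries held 2.95, 2.67 and 1.60 CPM in sham and 197, 191 and 382 CPM at 1.5 h (6.71 ± 0.60, adjusted p = 1.93e-07). Socs1 (3.23 ± 0.62), the kinase Pim1 (2.30 ± 0.24) and the factors Cebpd (2.09 ± 0.29) and Cebpb (1.76 ± 0.36) rose as well, and 6 of 11 tested members were called higher and 0 lower. Il6, the cytokine that signals through gp130, had 1 read over the 3 sham libraries and 1054 reads at 1.5 h, with 21.5, 25.1 and 23.9 CPM, a ratio of 1003 with an exact 95% counting interval from 180 to 39642 (adjusted p = 1.93e-07). This interval, like the others below, covers counting error only, since reads that carry no molecular identifier may copy 1 molecule. Osm, another ligand of this family, had 4 reads in sham and rose by 3.40 ± 0.75 (adjusted p = 0.00557), whereas Lif (1.29) and the receptor chains Il6ra (0.24), Il6st (0.10) and Osmr (0.57) did not pass the test.

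Chemokines that attract neutrophils and monocytes rose by test. Cxcl1 stood at 1.35, 1.71 and 4.80 CPM in sham and at 55.1, 53.9 and 45.6 CPM at 1.5 h (4.34 ± 0.40, adjusted p = 1.93e-07), and Cxcl2, its neighbour on chromosome 5, at 0.4495, 0.343 and 0.16 CPM against 10.5, 12.3 and 8.17 CPM (4.95 ± 0.58, adjusted p = 4.41e-06). Cxcl5 had 3 reads in sham and 65 at 1.5 h, a ratio of 20.6 (95% counting interval 6.75 to 103). Of 12 tested CXC genes these 3 were called higher, and the interferon-induced Cxcl9 (-0.39) and Cxcl10 (0.82) were not called. Among 16 CC chemokines and receptors 6 were called higher and 1 lower. Ccl2 rose from 0.935 ± 0.40 to 11.6 ± 2.43 CPM (3.59 ± 0.55) and Ccl7 from 1.08 ± 0.348 to 9.05 ± 0.363 CPM (3.06 ± 0.49). Ccr2, the receptor of both on monocytes, was lower, at 3.21, 2.40 and 3.44 CPM in sham and 1.34, 0.876 and 0.598 CPM at 1.5 h (-1.68 ± 0.38, adjusted p = 0.00628). Without sham replicate 2 the list had 3 members called higher, and without 1.5 h replicate 3 the fall of Ccr2 lost its call (adjusted p = 0.057).

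Genes of cytokine release and sensing were called at low levels. Csf3, which drives neutrophil production, had 1 read in sham and 79 at 1.5 h (ratio 75.2, 95% counting interval 13.1 to 3006), and Il1r2, a decoy receptor for interleukin 1, had 2 and 88 (ratio 41.9, interval 11.2 to 351). In the list of interleukin 1, TNF and colony stimulating factors 6 of 17 were called higher, and 3 without 1.5 h replicate 3, while Tnf (1.48) and Il33 (0.12) were not called. Cd14, the coreceptor for bacterial lipid, rose from 9.09 ± 2.62 to 46.8 ± 12.1 CPM (2.37 ± 0.33) and Tlr2 by 1.38 ± 0.29, and 3 of 14 Toll-like receptor genes were called.

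Selectins, which slow leukocytes on the vessel wall, were called higher. Sele stood at 1.61, 2.06 and 1.52 CPM in sham and at 17.8, 21.3 and 14.3 CPM at 1.5 h (3.36 ± 0.37, adjusted p = 2.08e-06). Selp had 7 reads in sham and 242 at 1.5 h (4.97 ± 0.55, adjusted p = 1.93e-06), and Icam1, the ligand of leukocyte integrins, rose by 1.91 ± 0.21. Vcam1 (0.25), Icam2 (0.17), Pecam1 (0.06) and Cdh5 (0.05) did not pass, and 0 of 12 tested endothelial markers were called. Ptgs2 (cyclooxygenase-2) stood at 0.835, 0.890 and 1.76 CPM in sham and at 22.4, 24.5 and 17.8 CPM at 1.5 h (4.24 ± 0.46, adjusted p = 1.62e-06). It was 1 of 2 called among 12 prostaglandin genes, the count being 1 without sham replicate 1, sham replicate 2 or 1.5 h replicate 3, and Ptges (0.03) and Ptgis (0.12) did not pass.

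Neutrophil markers moved in the same direction at a low level. Of 16 listed genes 10 were tested, and these summed to 5.07 to 10.7 CPM in sham and 25.7 to 48.6 CPM at 1.5 h, and 8 of the 10 were called higher and 0 lower, with a median of 2.36. Of the listed genes, 3 (Ly6g, Mpo and Elane) had 0 reads in all 6 libraries. Lcn2, an iron-binding granule protein also made by other cells, rose by 2.31 ± 0.44, and the calcium-binding S100a9 and S100a8 by 2.88 ± 0.65 and 2.42 ± 0.66. The call was lost for S100a8 without sham replicate 1, sham replicate 2 or 1.5 h replicate 2 (adjusted p up to 0.172) and for S100a9 without sham replicate 1. The list had 2, 4 and 3 members called higher without sham replicate 1, sham replicate 2 and 1.5 h replicate 2, and 2 with limma-voom. Il1r2, counted among the cytokine genes, is expressed by neutrophils too, and the part of these cells in the chemokine and cytokine results was not tested. Among 10 monocyte markers 0 were called higher and 1, Ccr2, lower, and the summed level was 193 to 195 CPM in sham and 207 to 219 CPM at 1.5 h.

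Heat shock genes rose strongly and unevenly between libraries. Hspa1a, an inducible chaperone of the Hsp70 family, stood at 2.95, 1.37 and 0.4797 CPM in sham and at 349.8, 257 and 798 CPM at 1.5 h (8.13 ± 0.89, adjusted p = 1.69e-06), and Hspa1b at 3.08, 0.343 and 2.24 CPM against 381, 361 and 1242 CPM (8.44 ± 1.00, adjusted p = 4.82e-06). Its cochaperone Dnajb1 went from 9.54 ± 2.22 to 245 ± 139 CPM (4.69 ± 0.59) and the small heat shock protein Hspb1 from 136 ± 19.7 to 712 ± 204 CPM (2.39 ± 0.25, adjusted p = 1.22e-06). In all 4 genes 1.5 h replicate 3 was the highest library, and without it the changes of Hspa1a, Hspa1b and Dnajb1 were 7.51, 7.61 and 4.14, all called. Of 31 tested heat shock genes 11 were called higher and 0 lower, and the constitutive members Hspd1 (0.16), Hspe1 (0.39) and Hsp90ab1 (0.28) and the factor Hsf1 (0.19) did not pass. Hspa1a and Hspa1b are near-identical single-exon neighbours on chromosome 17, and 66.2% and 74.5% of their reads were uniquely mapped, so the division of reads between them is uncertain.

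Promoter letters are shown for 7 genes called higher, as RefSeq gives them on GRCm38.p6, chosen because each holds a match to at least 1 of the motifs searched. The windows of Socs3, Atf3, Dnajb1 and Junb, which also rose strongly, held none of these motifs. Those of Atf3 and Socs3 are at RefSeq start sites 34706 and 681 bp from the GENCODE gene start, where no window was searched. Each run holds the 250 bases before the start site, 5′ to 3′ on the strand of the gene. Capitals mark matches, on either strand, to AP-1 (TGANTCA) in Il6 and Selp, to the cyclic AMP response element (TGACGTCA) in Has1 and to the NF-kappaB consensus in Fosb, Cxcl2, Il6, Hspa1a and Hspa1b.
Fosb (chr7:19310046-19310295, minus strand): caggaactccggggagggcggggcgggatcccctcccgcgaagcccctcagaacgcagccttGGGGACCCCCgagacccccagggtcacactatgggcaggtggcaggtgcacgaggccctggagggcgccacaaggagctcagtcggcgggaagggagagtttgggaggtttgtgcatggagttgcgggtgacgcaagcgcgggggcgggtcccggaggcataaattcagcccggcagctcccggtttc
Il6 (chr5:30012864-30013113, plus strand): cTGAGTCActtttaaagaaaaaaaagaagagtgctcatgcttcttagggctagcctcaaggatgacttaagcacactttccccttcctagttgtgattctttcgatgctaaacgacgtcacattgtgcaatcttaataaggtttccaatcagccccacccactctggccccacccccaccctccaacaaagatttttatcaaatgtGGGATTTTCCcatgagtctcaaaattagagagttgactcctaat
Cxcl2 (chr5:90903649-90903898, plus strand): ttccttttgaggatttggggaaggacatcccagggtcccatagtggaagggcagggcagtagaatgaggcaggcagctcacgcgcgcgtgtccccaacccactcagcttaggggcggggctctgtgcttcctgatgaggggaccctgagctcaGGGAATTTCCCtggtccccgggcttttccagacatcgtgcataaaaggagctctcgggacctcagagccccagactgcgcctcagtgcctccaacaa
Selp (chr1:164115014-164115263, plus strand): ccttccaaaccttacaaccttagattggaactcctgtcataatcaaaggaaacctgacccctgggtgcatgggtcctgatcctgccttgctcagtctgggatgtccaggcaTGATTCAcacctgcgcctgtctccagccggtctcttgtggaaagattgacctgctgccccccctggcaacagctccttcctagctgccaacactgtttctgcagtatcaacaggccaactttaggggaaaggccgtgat
Has1 (chr17:17855189-17855438, minus strand): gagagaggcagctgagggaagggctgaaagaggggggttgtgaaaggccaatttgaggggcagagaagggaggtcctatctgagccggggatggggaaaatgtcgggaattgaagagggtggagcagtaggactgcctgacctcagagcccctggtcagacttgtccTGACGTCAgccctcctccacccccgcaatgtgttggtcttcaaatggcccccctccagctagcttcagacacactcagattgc
Hspa1a (chr17:34972157-34972406, minus strand): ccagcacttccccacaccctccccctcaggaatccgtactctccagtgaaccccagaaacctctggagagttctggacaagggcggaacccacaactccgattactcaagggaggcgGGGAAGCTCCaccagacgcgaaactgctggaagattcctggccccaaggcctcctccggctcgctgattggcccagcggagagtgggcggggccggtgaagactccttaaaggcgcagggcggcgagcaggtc
Hspa1b (chr17:34959239-34959488, minus strand): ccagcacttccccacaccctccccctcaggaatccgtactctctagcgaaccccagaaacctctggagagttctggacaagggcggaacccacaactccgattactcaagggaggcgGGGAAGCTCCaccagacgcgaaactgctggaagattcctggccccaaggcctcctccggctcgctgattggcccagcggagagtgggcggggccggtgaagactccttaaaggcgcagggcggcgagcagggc
The NF-kappaB match began 44 bases before the start site in Il6, 97 bases in Cxcl2 (with a second match 1 base on that overlaps it), 188 in Fosb and 133 in Hspa1a and Hspa1b. The AP-1 match began 249 bases before the start in Il6 and 139 in Selp, and the cyclic AMP response element 83 in Has1. The 250 bases of Hspa1a and Hspa1b were identical at 247 positions (98.8%), and each held 1 match to the short heat shock element GAANNTTC, which is not shown in capitals, and none to the longer form of it.

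Over windows from 250 bases before to 50 after the start, 13 of the 107 genes called higher at least 4-fold that had a promoter in the table (12.15%) held the AP-1 letters, against 7.88% of all 27025 promoters and 4.97% of the 11006 tested genes with a window. The NF-kappaB consensus was in 15.9%, 8.21% and 10.4% of these sets, the cyclic AMP response element in 3.74%, 1.87% and 3.14%, and the CArG box, to which serum response factor binds, in 1.87%, 1.57% and 1.30%. The long heat shock element was in 0 of the 107, in 0.54% of all promoters and in 0.427% of tested genes, and the short one in 7.48%, 7.97% and 5.59%. Among 341 genes called lower, 3.52% held AP-1, 6.16% the NF-kappaB consensus, 5.57% the cyclic AMP response element, 0.587% the CArG box, 0.587% the long heat shock element and 5.28% the short one. These shares are descriptions without a test, and matches are letters, not bound sites.

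**Figure D2:**
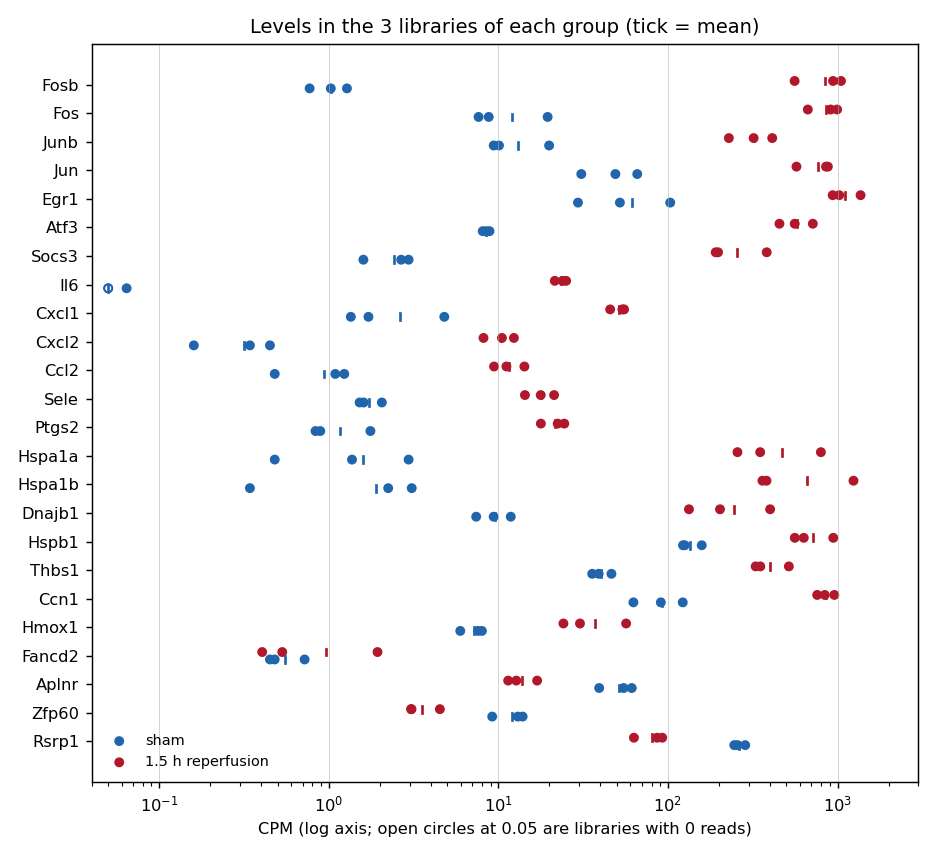
Level of 24 genes (rows) in each library of sham (blue) and 1.5 h of reperfusion (red), in CPM on a log axis, with a tick at each group mean. Groups are separated for all rows but Fancd2, and for Hspa1a and Hspa1b replicate 3 is the highest of the 1.5 h libraries.

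Genes of translation control gave a few calls and endoplasmic reticulum chaperones none. Within the integrated stress response, in which phosphorylated eIF2 favours translation of Atf4, 3 of 16 tested genes were called higher and 0 lower. These were Atf3, the eIF2 phosphatase subunit Ppp1r15a (18.3 ± 4.91 to 104 ± 26.0 CPM, 2.50 ± 0.31) and Atf4 itself (34.5, 31.6 and 44.4 CPM in sham against 104, 84.5 and 110.4 CPM, 1.44 ± 0.20, adjusted p = 3.05e-05). Asns (0.08) and Psat1 (0.15), enzymes of amino acid supply that Atf4 controls, did not pass, and neither did Trib3 (-0.76), another member of this list. Among 17 endoplasmic reticulum chaperones 0 were called in either direction, near the 4.55% called higher and 2.99% called lower over all tested genes. Hspa5 stood at 0.50 and Hsp90b1 at 0.13. By 3 h, 11 of these 17 were higher than at 1.5 h.

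Fancd2 was not called. Its libraries held 0.4495, 0.4795 and 0.72 CPM in sham and 1.94, 0.405 and 0.531 CPM at 1.5 h (23 and 43 reads in all), with a log2 fold change of 0.81 ± 0.74 (adjusted p = 0.557). The groups overlapped, and 1 library of 3 lay above sham. Of the 23 tested genes of ferroptosis, iron and lipid peroxidation, ferroptosis being a death by iron-dependent oxidation of membrane lipids, 2 were called higher, Hspb1 and the ferritin light chain Ftl1 (127 ± 11.2 to 211 ± 44.1 CPM, 0.73 ± 0.19), and 0 lower. Over all tested genes 4.55% were called higher and 2.99% lower. Ftl1 lost its call without 1.5 h replicate 1 or 3 or sham replicate 1 or 3 (adjusted p up to 0.109), which left 1 gene. Gpx4 (0.35), Acsl4 (0.14), Tfrc (-0.28), Slc40a1 (-0.09) and Aifm2 (0.09) did not pass.

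Some oxidant defence genes were called higher. Hmox1, which degrades heme, stood at 7.58, 5.96 and 7.995 CPM in sham and at 24.2, 30.3 and 56.6 CPM at 1.5 h (2.37 ± 0.45, adjusted p = 0.0016, and 1.93 without 1.5 h replicate 3). The NRF2 target Osgin1 rose by 1.92 ± 0.38 and the amino acid transporter chain Slc3a2 by 0.95 ± 0.17. In this list 7 of 17 were called higher and 0 lower, with 4, 4 and 3 without sham replicate 1, 1.5 h replicate 1 and 1.5 h replicate 3, and Slc7a11 (0.82), Nqo1 (-0.00) and Gclm (0.16) did not pass. Metallothioneins, which bind zinc, rose, Mt2 from 38.9, 19.8 and 63.1 CPM to 290.2, 194.5 and 323 CPM (2.73 ± 0.38) and Mt1 by 1.53 ± 0.26, while 0 of the other 9 members, which are Mt3, zinc transporters and the regulator Mtf1, were called.

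Genes of arrest, survival and cell death were among those called higher. Of 19 tested p53 targets and Gadd45 genes 9 were called higher, among them Gadd45g (20.9 ± 2.82 to 123 ± 32.4 CPM, 2.56 ± 0.37) and the cell cycle inhibitor Cdkn1a (72.9 ± 39.6 to 221 ± 41.4 CPM, 1.60 ± 0.32), with the proapoptotic Pmaip1 up from 0.606 ± 0.279 to 3.05 ± 0.79 CPM (2.35 ± 0.52), whereas Mdm2 (0.19), Bax (0.32) and Ccng1 (-0.09) were not called. This list had 7 called higher without sham replicate 1 or 1.5 h replicate 3. Of 22 cell death and survival genes 4 were called higher, with the inflammasome sensor Nlrp3 at 0.375 ± 0.325 CPM in sham and 3.19 ± 0.43 CPM at 1.5 h (2.99 ± 0.51) and the antiapoptotic Mcl1 up by 0.63 ± 0.13. The death domain kinase Ripk1 rose from 7.97 ± 0.0918 to 20.1 ± 7.19 CPM (1.33 ± 0.22). The inflammatory caspase Casp4 rose from 3.26 ± 0.723 to 7.35 ± 1.76 CPM (1.18 ± 0.30), a call lost without sham replicate 1 or 2 or 1.5 h replicate 3 (adjusted p up to 0.108), while Casp8 (-0.11) and Casp9 (-0.29) did not pass.

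Genes of the matrix surface and of clotting were called higher, collagens were not. Ccn1, a secreted integrin ligand, stood at 62.5, 90.8 and 122 CPM in sham and at 841, 759 and 958 CPM at 1.5 h (3.21 ± 0.41, adjusted p = 1.08e-05). Thbs1 (thrombospondin 1) rose by 3.30 ± 0.38, Ccn2 by 2.44 ± 0.36 and Tnfaip6, which modifies hyaluronan, by 3.20 ± 0.38. Has1, a hyaluronan synthase, had 1 read in sham and 423 at 1.5 h, with 5.01, 5.26 and 17.9 CPM (ratio 402, 95% counting interval 71.8 to 15932). Of 20 matricellular and hyaluronan genes 6 were called higher, of 13 collagens and Lox 0 in either direction. A list of 13 with 0 calls lies near the shares over all tested genes (4.55% higher and 2.99% lower). The protease Adamts1 rose from 66.4 ± 5.07 to 531 ± 123 CPM (3.00 ± 0.39) and Adamts4 by 3.20 ± 0.47. Its list had 5 of 18 called, but 2 without sham replicate 2 and 3 without 1.5 h replicate 1 or 3. The urokinase receptor Plaur rose by 2.82 ± 0.39, with 4 of 15 genes of clotting and plasminogen called higher, while tissue factor (F3, 0.13) did not pass.

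Growth factor and cytoskeleton genes followed. Hbegf, a ligand of the EGF receptor, rose by 1.86 ± 0.33 and was the only 1 of 11 in its list to be called. The activin subunit Inhbb (2.57 ± 0.49), the ligand Bmp2 (1.64 ± 0.33) and the inhibitor Smad7 (0.98 ± 0.22) were among 6 of 16 called higher in the TGF-beta list. Rnd1, a small GTPase that loosens actin, stood at 0.4495, 0.959 and 0.08 CPM in sham and at 9.08, 15.1 and 19.5 CPM at 1.5 h (4.81 ± 0.48, adjusted p = 6.68e-07), and 9 of 18 genes of small GTPases and the cytoskeleton were called higher, with cytoplasmic actin Actg1 at 1.28 ± 0.21. Sat1, which acetylates polyamines, rose from 27.9 ± 2.98 to 179 ± 39.2 CPM (2.68 ± 0.27, adjusted p = 7.09e-07). Ptx3, a soluble pattern recognition protein, stood at 0.385, 0.411 and 0.3998 CPM in sham and at 21.4, 28.1 and 49.3 CPM at 1.5 h (6.34 ± 0.62, adjusted p = 3.88e-07).

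Calls in lists of contractile and metabolic genes stand beside the 4.55% called higher and 2.99% called lower over all tested genes. Lists of 19 to 21 genes with 0 calls lie near these shares. Many metabolic genes lay slightly higher. In the sarcomere list 0 of 21, in calcium handling 0 of 19, among nuclear respiratory chain subunits 0 of 35, in ribosome biogenesis 0 of 28 and in the cell cycle 0 of 20 were called in either direction. Within stretch-responsive genes 5 of 16 were called higher, and 2 without sham replicate 3. Xirp1, an actin-binding protein of intercalated discs, stood at 251, 224 and 205 CPM in sham and at 549.9, 724 and 1207 CPM at 1.5 h (1.87 ± 0.30), and the natriuretic peptide Nppb at 85.0, 84.1 and 43.6 CPM against 129, 284 and 299 CPM (1.74 ± 0.38, adjusted p = 0.00479), while Nppa (0.67) and Ankrd1 (0.22) did not pass. Of 32 genes of fatty acid uptake and oxidation 3 were called higher, which fell to 1 without sham replicate 1 and 0 without sham replicate 2 or 1.5 h replicates 1 or 3. Of 30 glycolytic and hypoxia-inducible genes 2 were called, and 1 without sham replicate 1 or 2 or 1.5 h replicate 3. Every 1.5 h library lay above every sham library for 24 of the 35 respiratory chain subunits (median 0.18), 18 of the 32 fatty acid genes (median 0.23) and 19 of the 30 glycolytic genes (median 0.22), and for 0 genes of these lists it was the reverse, against 16.9% of all tested genes. The hypoxia target Vegfa (0.40) was not called. In the circadian list the repressors Bhlhe40 (2.12 ± 0.31) and Bhlhe41 (1.15 ± 0.23) were called in a total of 4 of 18, and 2 without sham replicate 1 or 2.

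Further lists had these counts, beside 4.55% called higher and 2.99% called lower over all tested genes. A list of 10 markers with 0 calls lies near these shares. Among 17 interferon-stimulated genes 1 was called higher, the factor Irf1 (1.05), and 1 lower, Oasl2, with a median of -0.51. For 9 of 17 every 1.5 h library lay below every sham library (16.6% over all tested genes). The fall of Oasl2 lost its call without any 1 of the 6 libraries, and 0 of the 17 were called in either direction without 1.5 h replicate 3. When only the compared groups entered the fit, 8 were called lower. Of 26 ion channel and gap junction genes 1, Gja5, was called lower, a call lost without sham replicate 2 or 1.5 h replicates 1 or 3. Solute carriers induced in stress gave 5 of 11 higher, polyamine and NAD genes 3 of 17, glucocorticoid-induced genes 3 of 12 and aryl hydrocarbon receptor genes 1 of 7, each with 0 lower. For cell types, 0 of 10 fibroblast markers (summed 2316 to 2390 CPM in sham and 2234 to 2648 CPM at 1.5 h), 0 of 10 smooth muscle and pericyte markers and 0 of the tested T, NK, B, platelet and erythroid markers were called. Ventricular cardiomyocyte markers gave 2 of 15 called higher, and 0 without sham replicate 3 or 1.5 h replicate 2, and resident macrophage markers 1 higher and 1 lower of 13, the fall being lost without any 1 of the 6 libraries.

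**Figure D3:**
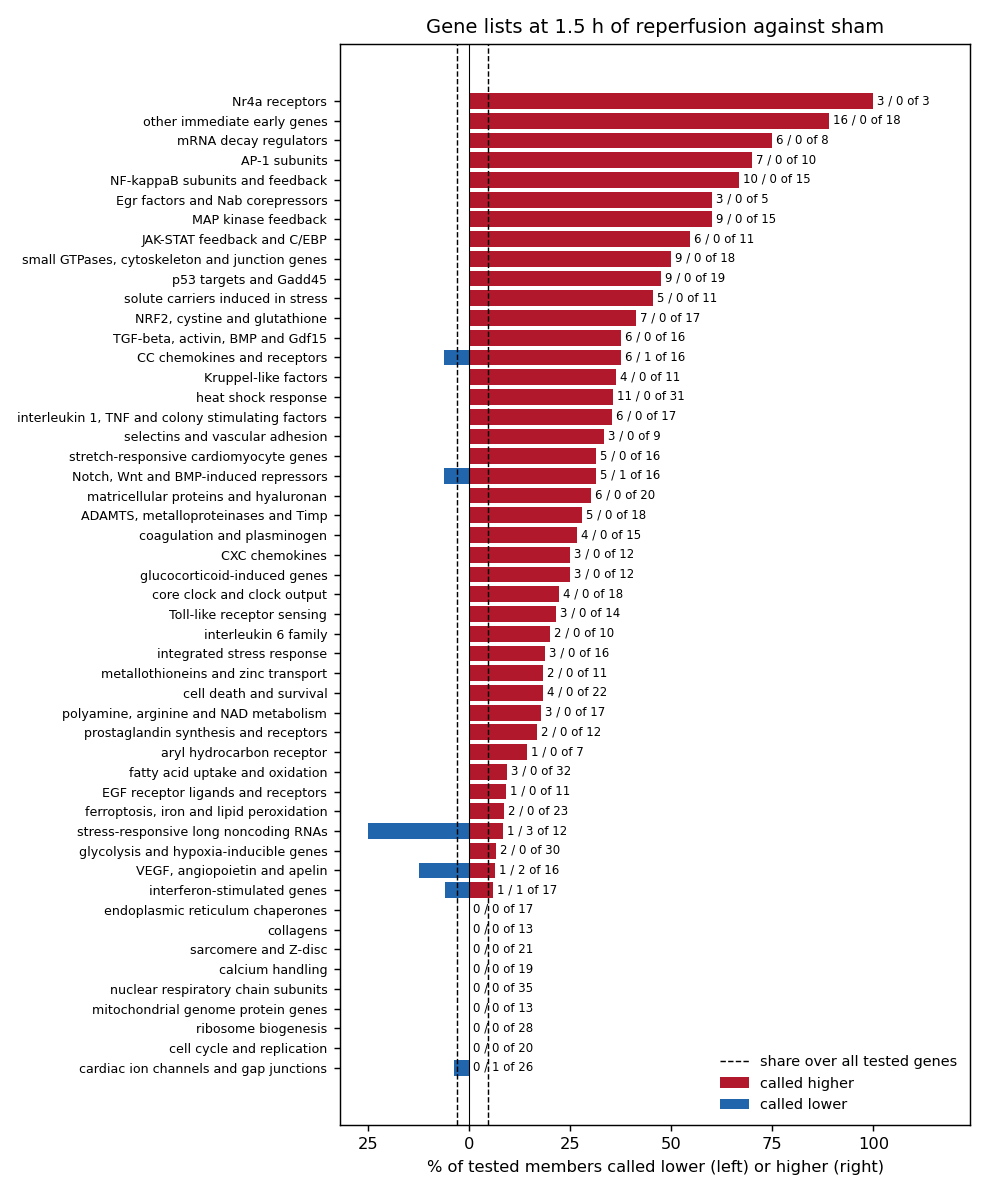
Share of tested members called higher (red, right) or lower (blue, left) at 1.5 h against sham in each gene list, with the counts higher / lower of tested beside each bar and dashed lines at the shares over all tested genes (4.55% and 2.99%). Early response and feedback lists stand at the top, and lists of contraction, respiration and ribosome biogenesis hold no called member.

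The falls had another make-up than the rises. Genes named Zfp with a number, zinc finger proteins many of which belong to the KRAB family of repressors, made up 351 of the tested genes (2.32%) and 84 of the 452 called lower (18.6%), and 7 were called higher, among them Zfp36 and Zfp36l1, which are RNA-binding proteins of another kind. Their median log2 fold change was -0.56, and 291 of the 351 were below 0. This set was chosen after its values were seen. Zfp60 on chromosome 7 stood at 13.03, 13.9 and 9.19 CPM in sham and at 3.07, 4.52 and 3.05 CPM at 1.5 h (-1.76 ± 0.33, adjusted p = 0.00112). Zfp874b on chromosome 13 went from 13.8, 15.3 and 16.2 CPM to 4.54, 4.45 and 3.85 CPM (-1.82 ± 0.21, adjusted p = 3.85e-06), and Zfp329 and Zfp866 fell by 1.68 ± 0.22 and 1.60 ± 0.27. By chromosome, the most genes called lower were on chromosomes 17 (17 of 46 tested Zfp genes), 7 (17 of 84) and 13 (14 of 35), beside 84 of 351 in the whole set. Chromosome 15 had 0 of 11 and chromosome 6 had 1 of 17. Without 1.5 h replicate 3 the set had 38 of the 147 genes called lower (25.9%), without 1.5 h replicate 1 52 of 199, and its median then lay between -0.50 and -0.57. Reads of this family may be divided between similar copies, although the count with multiply mapped reads included was 86.

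Single falls of other kinds were led by 9430062P05Rik, a single-exon transcript at chr9:90156460-90159804 that awaits experimental support, with 5.97, 6.44 and 7.92 CPM in sham and 0.20, 0.539 and 0.199 CPM at 1.5 h (-4.40 ± 0.50, adjusted p = 2.82e-06). The long noncoding RNA AI480526 fell by 2.40 ± 0.33 and overlaps other called transcripts on chromosome 5, so that its reads are uncertain. Rsrp1, whose product is rich in arginine and serine, stood at 246, 257 and 285 CPM in sham and at 63.0, 92.5 and 86.3 CPM at 1.5 h (-1.71 ± 0.24, adjusted p = 4.06e-05). Aplnr, the apelin receptor of endothelium, fell from 39.3, 61.2 and 54.8 CPM to 11.4, 16.9 and 12.8 CPM (-1.92 ± 0.44, adjusted p = 0.00772), while its ligand Apln (-0.05) and the vascular receptors Kdr (-0.28) and Tek (-0.22) did not pass. In the list of VEGF, angiopoietin and apelin genes, 2 of 16 were called lower, Aplnr and Nrp1, and 1 higher, Pgf. Over all tested genes 2.99% were called lower and 4.55% higher. The call of Nrp1 was lost in 8 of 17 alternatives and that of Pgf in 9. Il16, a leukocyte cytokine, fell by 1.57 ± 0.31 and Hey2, a Notch-induced repressor of heart and artery, from 5.26 ± 0.588 to 2.54 ± 0.727 CPM (-1.05 ± 0.23, adjusted p = 0.0053). Pnpla3, a lipid droplet protein, fell by 2.12 ± 0.49, with a call lost without 1.5 h replicate 1 (adjusted p = 0.0547).

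Transcripts of the mitochondrial genome had medians below 0 in both classes. Of 16 tested transfer RNA genes 6 were called lower and 0 higher, with a median of -0.71, against 2.99% called lower over all tested genes. The transfer RNA gene mt-Ti stood at 4.75, 5.0 and 8.08 CPM in sham and 1.47, 1.69 and 1.59 CPM at 1.5 h (-1.90 ± 0.34, edgeR's adjusted p = 0.000975). All 13 protein-coding genes of the mitochondrial genome were tested and 0 were called, with a median of -0.45. For 7 of these 13 every 1.5 h library lay below every sham library, against 16.6% of all tested genes. Values ran from mt-Atp8 at -0.94 to mt-Nd4l at 0.90. The counter's strand setting is not given in the sources used here, so transfer RNA reads cannot be separated from those of neighbouring or opposite transcripts. The lower mitochondrial share of the 1.5 h libraries moved in the same direction, and its part in these falls was not tested.

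Genes called higher had a lower median span and fewer exons than all tested genes in the GENCODE vM21 annotation. The median gene span was 10720 bp for genes called higher, 4907 bp for those at least 4-fold higher and 17899 bp for genes called lower, against 21424 bp over all tested genes. Genes with at most 3 exons made up 30.9%, 49.7% and 23.7% of these sets and 18.3% of all tested genes. Processed pseudogenes, which are copies of spliced transcripts, gave 24 genes called higher and 0 lower out of 427 tested (5.62% higher, near the 4.55% over all tested genes). Leaving out sham replicate 1 gave 7 such calls, sham replicate 2 or 3 gave 10, and there were 13 without 1.5 h replicate 1 and 9 without 1.5 h replicate 3. For Gm7336, the most abundant of those called, 29.8% of reads mapped uniquely, so that its reads cannot be assigned to it with certainty.

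**Figure D4:**
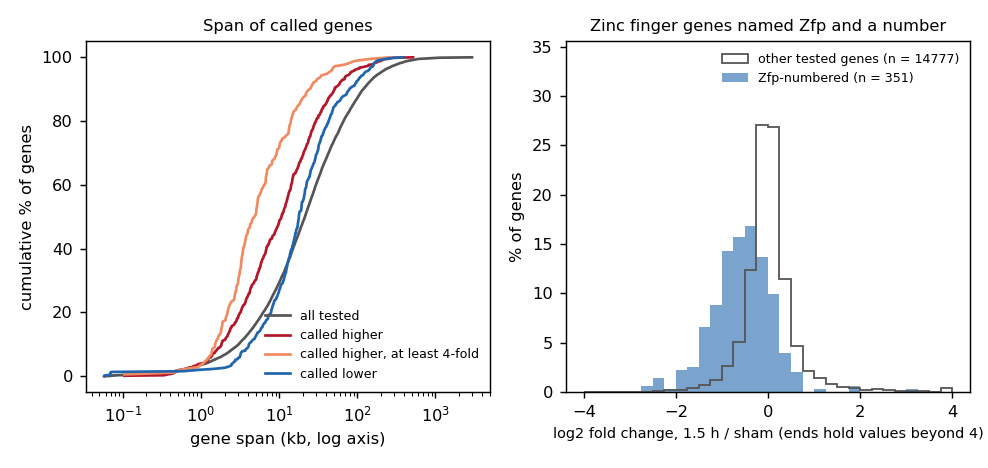
Left, cumulative share of genes (%) over gene span (kb, log axis) for all tested genes and the sets called at 1.5 h against sham; right, distribution of the log2 fold change in the 351 Zfp-numbered genes (filled) and in the other tested genes (line). Genes called higher lie to the left of all tested genes, and the Zfp distribution lies to the left of 0 with a median of -0.56.

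Comparison with 1 h asked what changed in the last interval before 1.5 h. Only 8 genes were called higher at 1.5 h than at 1 h (0.0529%) and 2 lower (0.0132%) by edgeR's quasi-likelihood test, with 1592 at an unadjusted p below 0.05, and DESeq2 called 55 and 15. Selp rose most. It stood at 0.22, 0.598 and 0.994 CPM at 1 h, at 3.27, 7.62 and 5.31 CPM at 1.5 h and at 15, 17.1 and 17.8 CPM at 3 h (3.11 ± 0.43 from 1 h to 1.5 h, adjusted p = 0.00255; 1.62 on to 3 h, adjusted p = 0.00265), so the libraries of successive times did not overlap. Prg4 (lubricin) stood at 3.23, 4.48 and 4.16 CPM at 1 h, 11.6, 7.28 and 17.0 CPM at 1.5 h and 85.7, 72.3 and 61.5 CPM at 3 h (1.58 ± 0.24, adjusted p = 0.00439). The NF-kappaB subunit Rel rose from 26.7, 28.5 and 26.7 CPM to 43.7, 59.1 and 56.6 CPM (0.96 ± 0.15, adjusted p = 0.00439). Sbno2, a STAT3-induced corepressor, rose by 1.55 ± 0.28, Ripk1 by 1.21 ± 0.21, the elongation factor Ell2 by 1.31 ± 0.25 and the Ikaros family factor Ikzf4 by 2.52 ± 0.45, and all 4 lost their call without 1.5 h replicate 3 (adjusted p = 0.356, 0.392, 0.552 and 0.47) and without 1 h replicates 1 or 3. Grrp1, named after its value was seen like Rel, rose by 1.02 ± 0.20. Without 1 h replicate 1 there were 0 calls in either direction, without 1 h replicate 3 2 higher and 0 lower, without 1.5 h replicate 3 3 and 3, and without 1.5 h replicate 1 20 and 0. Selp and Prg4 lost theirs without 1 h replicate 1 (adjusted p = 0.0535 and 0.0772).

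**Figure D5:**
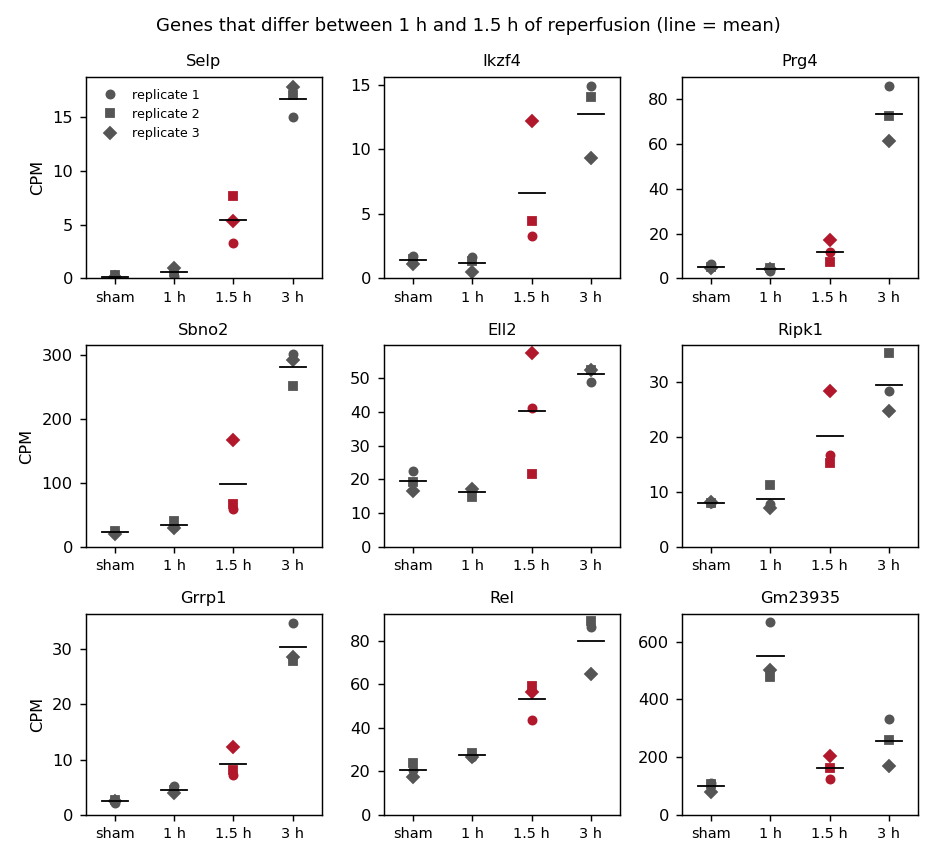
CPM of 9 genes called between 1 h and 1.5 h of reperfusion, in the 3 libraries of sham, 1 h, 1.5 h (red) and 3 h, with a line at each group mean. For Ikzf4, Sbno2, Ell2 and Ripk1 replicate 3 of the 1.5 h group lies above replicates 1 and 2, and Gm23935 is higher in every 1 h library than in any library of the other groups shown.

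Between 1.5 h and 3 h there were 811 genes called higher at 3 h (5.36%) and 479 lower (3.17%). Of the 689 genes already higher at 1.5 h, 134 rose further by 3 h and 17 fell, and of the 452 lower, 38 fell further and 13 rose. Both comparisons share the 1.5 h libraries. Mean levels were highest at 3 h for 287 of the 689, at 6 h for 178 and at 1.5 h for 118. Only 8 of the 689 were called above 1 h, so at most 8 could be called above both times, and 0 were also called above 3 h. Early genes were among the falls. Fos went on from 857 ± 170 to 287 ± 99.6 CPM (-1.58 ± 0.41, adjusted p = 0.0187), Jun from 768 ± 170 to 225 ± 50.3 CPM (-1.77 ± 0.35, adjusted p = 0.00265) and Zfp36 from 480 ± 86.5 to 188 ± 13.3 CPM (-1.35 ± 0.27), whereas Fosb (-0.54), Junb (-0.44) and Egr1 (-1.16) did not pass the test. Among the rises, Prg4 increased by 2.61 ± 0.21 (adjusted p = 6.31e-08), Cxcl5 from 1.45 ± 0.785 to 13.1 ± 6.73 CPM (3.18 ± 0.38, adjusted p = 2.46e-05) and Angptl4, an inhibitor of lipoprotein lipase, from 26.4 ± 9.97 to 138 ± 58.2 CPM (2.38 ± 0.41). Angptl4 was thus a change that 1.5 h did not show, at 0.19 ± 0.41 against sham (adjusted p = 0.828). Without 1.5 h replicate 1 or 2 the counts were 393 or 359 higher and 227 or 166 lower, and without 3 h replicate 1 or 3 they were 427 or 391 higher and 273 or 143 lower. The fall of Fos lost its call without 1.5 h replicate 1 or 3 h replicates 1 or 3 (adjusted p up to 0.0982).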

How the data were processed

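Counts of uniquely mapped reads per gene were deposited by the authors, 1 table per library, with duplicates kept, per the file headers, which also give counts with multiply mapped reads and after duplicate removal. The deposited gene length column is given in bases, an other kind of value that was not used in the tests. Per the submitters' processing notes the genome was mm10. For aligner, counter and strand use, the answer is not given in the sources used here. Of 46078 genes, 15128 passed edgeR's filter on low counts (minimum count 10, minimum total 15) in the fit of all 24 libraries. That fit had 1 coefficient per group, TMM scaling, edgeR 4.0.16's quasi-likelihood test in R 4.3.3 and Benjamini-Hochberg adjustment over all tested genes, called below 0.05. CPM values use TMM-scaled totals. A count of 3, the limit that 0 reads allow, is 0.189 CPM of the total before TMM scaling in sham replicate 1. Standard errors were taken from the fold change and its F statistic. Alternatives were another scaling or filter, other read classes, a replicate block, leaving out each library, limma-voom (limma 3.58.1) and DESeq2 1.42.0. Named genes were the 15 largest rises and falls against sham, up to 5 called members per list and the 6 largest in each direction between times. The largest changes were taken among called genes with a mean of at least 5 CPM in the higher group. Against sham the libraries of both groups also had not to overlap, so larger changes at lower levels may be left out. The members and lists were chosen with earlier results of these data known. Same-numbered libraries of sham and 1.5 h deviated with correlations of -0.10, 0.01 and -0.03 and were not treated as pairs. Promoter sequences are RefSeq's on GRCm38.p6, and gene spans are GENCODE vM21's. Some items are not reported here.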

Additional observations from a re-analysis of the deposited data

Results flagged for a closer look

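Changes between 1 h and 1.5 h passed the test of the difference between these times for 10 genes. From 1 h to 1.5 h the log2 changes were 3.11 for Selp, 2.52 for Ikzf4, 1.58 for Prg4, 1.55 for Sbno2, 1.31 for Ell2, 1.21 for Ripk1, 1.02 for Grrp1 and 0.96 for Rel. Gm23935, a short transcript annotated as a miRNA gene on chromosome 16, was lower by -1.75 ± 0.31 (edgeR's adjusted p = 0.0220), with 668, 480 and 502 CPM at 1 h and 125.0, 161 and 205 CPM at 1.5 h. Its call was lost without 1 h replicates 1 or 3 or 1.5 h replicates 1 or 2. Vps37d had 37 reads at 1 h and 2 at 1.5 h, a ratio of 0.056 with an exact 95% counting interval from 0.0065 to 0.217.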

How the results depend on the processing

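Against sham, 689 higher and 452 lower calls became 1226 and 836 when only the compared groups entered the fit, 1036 were higher with no filter, and leaving out 1 library gave 356 to 670 higher and 147 to 371 lower. Against 1 h, 8 higher and 2 lower became 0 and 1 with only the compared groups, 2 and 0 with library totals without TMM, 242 and 115 with no filter, 1 and 1 with limma-voom, 55 and 15 with DESeq2, and 1 lower with the 1 CPM filter or duplicates removed; leaving out 1 library gave 0 to 20 higher and 0 to 3 lower. At 3 h against 1.5 h, 811 higher and 479 lower became 492 and 187 with only the compared groups, and leaving out 1 library gave 359 to 1050 and 143 to 701. The cause was not tested. With the replicate block the counts were 643 and 397 against sham, 6 and 2 against 1 h and 740 and 430 at 3 h against 1.5 h. The share of calls that were higher was 60.4% against sham and 70.1% and 70.8% without 1.5 h replicates 1 and 3; against 1 h it was 80.0%, from few calls, 100% with library totals without TMM, 0% with only the compared groups and 50% with limma-voom or without 1.5 h replicate 3. Of 195 called results for named genes, 134 kept their call in every alternative and 0 reversed. Without 1.5 h replicate 3, 354 of the 689 genes called higher (51.4%) and 139 of the 452 called lower (30.8%) kept their call. They were 354 of the 356 and 139 of the 147 called without it. Low read numbers limit genes such as Fancd2, with 23 and 43 reads.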

Other observations

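Genes called in the same direction lay side by side in several places, within 50 kb of each other. Called higher were Ccl2, Ccl7 and Ccl11 on chromosome 11, Cxcl1 and Cxcl2 on chromosome 5, Mt2 and Mt1 on chromosome 8, S100a8 and S100a9 on chromosome 3, and Sbno2, Stk11, Atp5d, Cbarp and Midn on chromosome 10. Called lower were Zfp709, Zfp617 and Zfp961 on chromosome 8 and Zfp874a, Zfp874b and Zfp58 on chromosome 13. These neighbours were chosen after their values were seen, and their number was not tested against other gene arrangements.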
